A study of Drosophila melanogaster with 80 samples.

Results

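Gene expression was compared between the warm and the cool extreme of a temperature cycle in adult male Drosophila melanogaster. The cycle ran 8 °C above and below a mean of 19 °C, which puts its warm point at 27 °C and its cool point at 11 °C, and fluctuating males were taken at either point after 6 or 12 cycles, within 13 days of treatment as adults. All 16 libraries labelled as fluctuating adult males were used, of 80 in the whole series, and they were chosen by their labels: 8 from the warm point and 8 from the cool point, with 4 of each at either cycle number. Each library is polyadenylated RNA of whole males. Males kept at a constant 19 °C and sampled at the same high and low points (8 and 8 libraries) were used as a comparison, as were 16 libraries of fluctuating females. All flies received fresh food vials every 2 days. The warm and cool libraries differ in sampling time as well as temperature, and the constant males carry the difference between the sampling points without that in temperature. The design text calls the 4 libraries of each group biological replicates and says no more about them. The labels do not state the strain, the starting age, the light regime or the number of flies behind a library. In whole animals, fewer cells of a type and less RNA per cell cannot be told apart.

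Insects do not hold a fixed body temperature, and their cells meet a change in temperature with chaperones, proteins that keep others folded. Heat-inducible chaperones such as Hsp70 are switched on by the transcription factor Hsf, while others, such as Hsp83 (the fly Hsp90) and Hsc70-4, are abundant at all times. The fly clock is a loop in which Clk and cyc activate per and tim, whose proteins shut off their own transcription, and both light, through the photoreceptor protein cry, and daily temperature cycles can set its phase. In the cold, flies also change membrane lipids, sugars and the use of stored fat.

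The libraries carried the marks of adult males. Genes of the accessory gland, the testis, the eye, the brain and muscle were all detected, and the accessory gland gene Acp36DE lay between 355 and 1390 CPM (counts per 1000000, with library sizes scaled by TMM factors) in the 16 libraries. Total counts, in units of 1000000, ran from 87.1 to 122.6 at the warm point and from 88.0 to 115.3 at the cool point. One of the constant males, replicate 2 of the low point at 6 cycles, held 22200 CPM of yolk and eggshell genes, against 22.7 to 264 CPM in the 31 other male libraries, and the counts that rest on it are given with and without it. Among the fluctuating males, replicate 5 of the cool point at 12 cycles was the highest for these genes (264 CPM, with at most 103 CPM in the 15 others). Replicate 1 of the warm point at 6 cycles held 70900 CPM of ribosomal protein genes, against 53200 to 55000 CPM in the other 3 libraries of its group, and 1710 CPM of neuron genes, against 2700 to 2940 CPM.

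Of 15599 genes tested in fluctuating males, 5291 differed between the warm and the cool point (33.9%, at an adjusted p of 0.05): 2671 were higher at the warm point (17.1%) and 2620 lower (16.8%). Most differences were small. The median size among the genes called was 0.40 on the log2 scale, and 580 genes differed by at least 2-fold, 241 higher and 339 lower. The 8 warm and 8 cool libraries did not overlap for 1807 of the genes tested (11.6%). In a principal component analysis of 10029 genes the first component, with 39.5% of the variance, placed all 8 warm libraries at 12.3 to 25.9 and all 8 cool libraries at -19.9 to -13.7, and the second, with 25.9%, separated 12 from 6 cycles. The count ran from 4983 to 5865 with each library left out in turn.

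The steepest falls at the warm point included a core gene of the clock, a long non-coding RNA and several enzymes. Period (per, X:2685580-2692780 in the BDGP6.54 annotation), the clock repressor, had 23.6, 28.8 and 33.8 CPM (lowest, median and highest) at the warm point, against 130, 160 and 199 CPM at the cool point. It was 5.79-fold lower at the warm point (log2 fold change -2.53, SE 0.0652, adjusted p = 6.42e-14). Constant males lay between, at medians of 78.2 CPM at the high and 69.0 CPM at the low point.

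The long non-coding RNA lncRNA:CR30121 (2R:18739131-18741658) had 0.177, 0.419 and 0.531 CPM at the warm point, against 13.0, 16.3 and 19.8 CPM at the cool point (log2 fold change -5.49, SE 0.143, adjusted p = 6.42e-14). Its neighbour CG18609 (2R:18742517-18743626) moved the same way, with 51.6, 57.7 and 64.7 CPM at the warm point, against 341, 382 and 534 CPM at the cool point (-2.79, SE 0.0902, adjusted p = 1.05e-12). Both lie inside Hs3st-A on the other strand, which differed by -0.18 (adjusted p = 0.0812), and the preparation is not stated to keep the strand. The uncharacterised genes CG13694 and CG15221 fell by 3.60 and 3.63. CG13694 had a median of 0.759 CPM at the warm point, against 9.71 CPM at the cool point (adjusted p = 5.73e-12), and CG15221 had 2.57 CPM, against 34.7 CPM (adjusted p = 9.04e-10). They overlap more abundant genes on the other strand, ND-15 (-0.11, adjusted p = 0.189) and inaF-B (-0.35, adjusted p = 0.000241).

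Acsx3, MsR1, stl and rost complete the steepest falls, and none of their warm libraries reached a cool one. Acsx3, of the acyl-CoA synthetase family, had 50.3, 62.4 and 67.4 CPM at the warm point, against 255, 325 and 464 CPM at the cool point (-2.53, SE 0.127, adjusted p = 2.72e-10). MsR1, a receptor of the neuropeptide myosuppressin, had 5.52, 7.92 and 10.5 CPM, against 31.3, 40.1 and 46.3 CPM at the cool point (-2.33, SE 0.140, adjusted p = 1.79e-09). The extracellular protease gene stl fell by 2.47 (adjusted p = 3.18e-10), and rost, a membrane protein known from the fusion of muscle precursors, by 2.32 (adjusted p = 3.81e-13).

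The steepest rises included Npc2d, of the Npc2 family of sterol-binding proteins. It had 14.4, 23.9 and 30.1 CPM at the warm point, against 3.23, 4.62 and 6.74 CPM at the cool point (log2 fold change 2.31, SE 0.152, adjusted p = 4.89e-09). CG31106 had 48.2, 90.2 and 107 CPM, against 12.8, 17.2 and 20.4 CPM at the cool point (2.36, SE 0.149, adjusted p = 3.05e-09), and CG15155 had 38.3, 57.5 and 88.1 CPM, against 5.30, 13.8 and 21.6 CPM (2.16, SE 0.190, adjusted p = 1.63e-07). No warm library of these genes overlapped a cool one. CG17560, annotated as a fatty acyl-CoA reductase, rose by 1.96 (adjusted p = 8.02e-08), the kinase gene Takl2, named for its likeness to Tak1, by 2.15 (adjusted p = 1.59e-09), the uncharacterised CG30043 by 1.99 (adjusted p = 8.64e-10) and lncRNA:CR43417 by 1.97 (adjusted p = 4.78e-09). Takl2 overlaps the more abundant CG45049 on the other strand (-0.16, adjusted p = 0.383).

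The steepest fall and the steepest rise among the named genes came from 1 locus. CG10570 and CG42502 are annotated on the same strand of the same interval (2L:18808694-18811252), and in each of the 16 libraries most counts went to 1 of the names. CG42502 had 539, 614 and 788 CPM at the warm point, against 10.2, 10.7 and 505 CPM at the cool point (log2 fold change 3.95, SE 0.962, adjusted p = 0.00375). CG10570 had 8.42, 9.71 and 12.9 CPM at the warm point, against 14.6, 525 and 585 CPM at the cool point (-5.52, SE 0.498, adjusted p = 2.04e-07).

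Replicate 5 of the cool point at 12 cycles was the exception among the cool libraries, with its counts under CG42502. Without it the 2 values were 5.79 and -5.73, and with 12 cycles alone CG42502 did not pass (2.13, adjusted p = 0.264). The sum of both names moved far less than either name, with 548, 623 and 800 CPM at the warm point, against 516, 536 and 596 CPM at the cool point. That sum differed by 0.22 on the log2 scale (exact two-sided permutation test within cycle number, p = 0.00531, with 0.000408 the smallest p that its 4900 arrangements can give). Among 129 pairs of genes annotated on 1 interval, 4 pairs were called in opposite directions. With 17.1% of all genes called higher and 16.8% lower, some such pairs would also come from unrelated genes. Whether 4 exceeds their number was not tested. In constant males the names also traded places within a group. At the high point CG42502 had 514 CPM in replicate 3 at 6 cycles and 8.41 to 11.7 CPM in the others. At 12 cycles it had 8.55 CPM in replicate 7 and 390 to 523 CPM in the others. At the low point it had 351 CPM in replicate 2 at 6 cycles and 7.57 to 11.9 CPM elsewhere. The file does not say how the counts were divided between the names, and whether the transcripts changed was not tested.

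**Figure D1:**
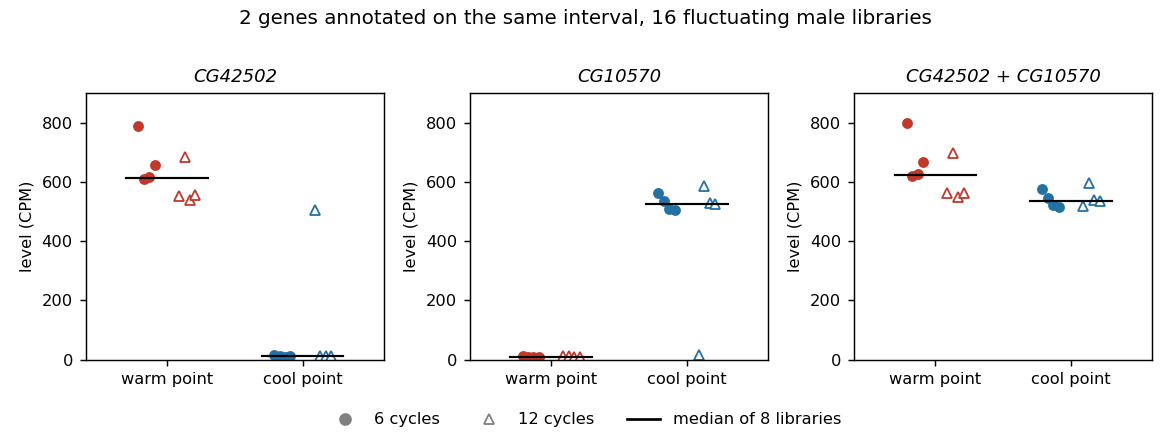
Level (CPM, y axis) of CG42502, CG10570 and their sum in each of the 16 fluctuating male libraries, warm point left and cool point right; circles are 6 cycles, triangles 12 cycles, black lines the median of 8 libraries. The 2 genes trade places between the points except in 1 cool library, while the sums lie between 548 and 800 CPM at the warm point and between 516 and 596 CPM at the cool point.

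Heat-inducible chaperone genes were higher at the warm point. All 7 heat-inducible Hsp70 and Hsp68 genes rose, against 17.1% of all genes tested, with a median log2 fold change of 1.84, against -0.02 over all genes. Hsp70Bb had 9.66, 17.4 and 38 CPM at the warm point, against 3.43, 3.98 and 4.68 CPM at the cool point (2.18, SE 0.212, adjusted p = 4.80e-07). Hsp70Bbb rose by 2.18, Hsp70Ba by 2.08 and Hsp70Bc by 1.84, and in each of these 4 copies every warm library stood above every cool one. The copies are nearly identical, and reads that fit several of them may have been divided among them.

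Hsp70Aa and Hsp70Ab, the other pair of copies, showed a second pattern. Hsp70Aa had 20.0, 39.9 and 47.9 CPM at the warm point, against 12.8, 14.8 and 22.8 CPM at the cool point (1.13, SE 0.184, adjusted p = 0.000112). Constant males had 4.68 CPM at the high and 3.50 CPM at the low point as medians, so the cool extreme too was above them (1.94, adjusted p = 2.98e-08, and 2.16 without the constant library rich in yolk genes). Hsp70Ab gave the same order with 43.5, 15.9, 5.10 and 3.84 CPM as medians of the 4 groups, and a cool difference from constant males of 1.96 (adjusted p = 1.48e-08, and 2.17 without that library). For Hsp70Bb that cool difference was 0.40 (adjusted p = 0.0468). Hsp68, with 52.8 CPM at the warm and 43.4 CPM at the cool point as medians, rose by 0.26 (adjusted p = 0.000833).

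Of 21 genes of the list of Hsp83, its co-chaperones and Hsf, 11 rose (52.4%) and 2 fell (9.52%), against 17.1% and 16.8% of all genes. Hsp83 had 1230, 1430 and 1630 CPM at the warm point, against 619, 728 and 806 CPM at the cool point (0.98, SE 0.0684, adjusted p = 1.00e-08). Stip1, the adaptor between Hsp70 and Hsp90 proteins, had 110, 136 and 154 CPM, against 43.6, 50 and 51.8 CPM at the cool point (1.42, SE 0.0599, adjusted p = 2.80e-11). Hsc70-4, the constitutive relative of Hsp70, had 2200, 2850 and 3290 CPM, against 1280, 1360 and 1420 CPM (1.02, SE 0.0550, adjusted p = 5.07e-10). None of these 3 genes overlapped between the points, and the J-domain co-chaperone gene DnaJ-1 rose by 0.33 (adjusted p = 0.000221).

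The 2 genes that fell were Hsf itself (-0.27, SE 0.0516, adjusted p = 0.000503) and stv, a co-chaperone of the BAG family (-0.30, SE 0.0542, adjusted p = 0.000281). Hsf had 40.1, 51.7 and 55.3 CPM at the warm point, against 55.2, 60.5 and 64.5 CPM at the cool point. Of 11 small heat shock protein genes 3 rose (27.3%) and 0 fell, against 17.1% and 16.8% of all genes. L(2)efl rose by 0.69 (adjusted p = 1.02e-06), Hsp23 by 0.28 (adjusted p = 0.000229) and Hsp26 by 0.27 (adjusted p = 0.0013, and 0.105 in a fit of all 32 male libraries). Hsp22 (0.54, SE 0.389, adjusted p = 0.334) and Hsp27 (-0.04, SE 0.0460, adjusted p = 0.544) did not pass. Hsp22 was the most variable, between 61.5 and 145 CPM at the warm point and between 3.46 and 119 CPM at the cool point.

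**Figure D2:**
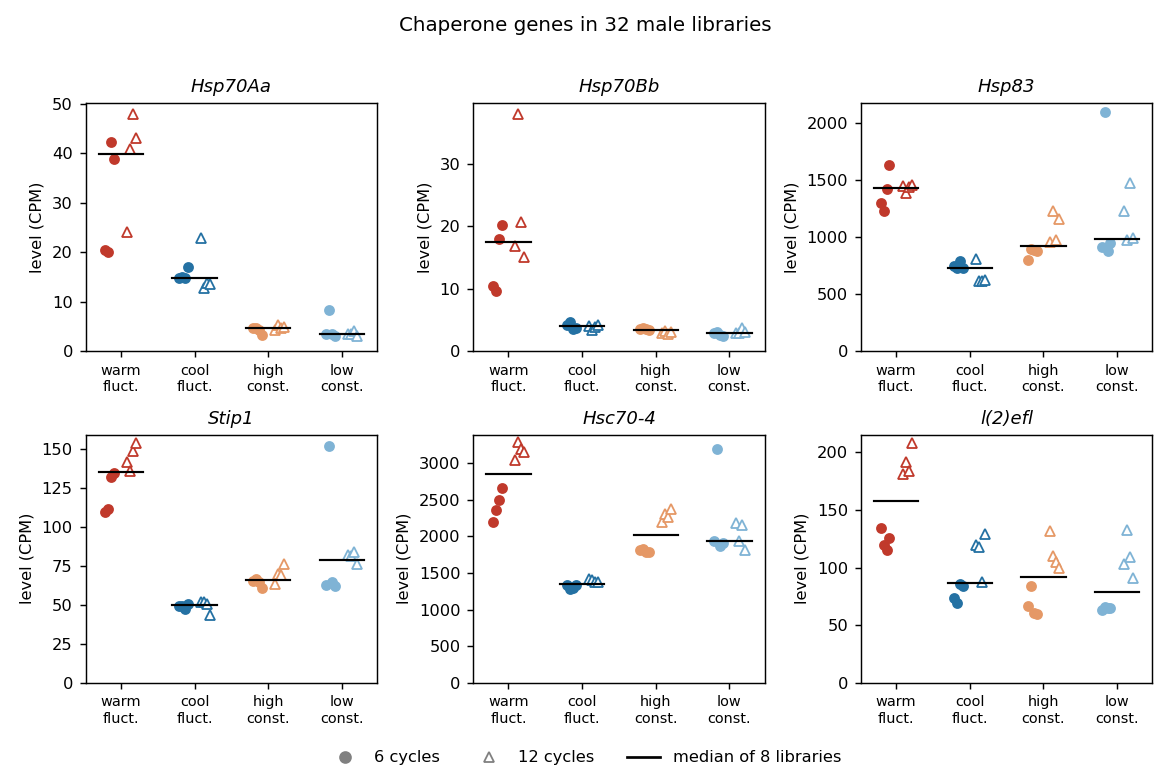
Level (CPM, y axis from 0) of 6 chaperone genes in the 32 male libraries, with fluctuating males at the warm and cool points left of constant males at the high and low points; circles are 6 cycles, triangles 12 cycles, black lines the median of 8 libraries. The warm medians lie above the cool ones, with no overlap of libraries for Hsp70Bb, Hsp83, Stip1 and Hsc70-4 and some overlap for Hsp70Aa and l(2)efl. For Hsp70Aa both fluctuating groups (medians 39.9 and 14.8 CPM) lie above the constant ones (4.68 and 3.50 CPM); the high circle at the low constant point in Hsp83, Stip1 and Hsc70-4 is the library rich in yolk genes.

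Of 23 chaperone and unfolded protein response genes of the endoplasmic reticulum (ER) 12 rose (52.2%) and 2 fell (8.70%), against 17.1% and 16.8% of all genes. Calr, the calcium-binding chaperone calreticulin, had 542, 617 and 717 CPM at the warm point, against 329, 365 and 407 CPM at the cool point (0.75, SE 0.0598, adjusted p = 5.28e-08), and the ER Hsp70 relative Grp170 also rose by 0.75 (adjusted p = 4.73e-06). Ire1, the sensor of unfolded proteins in the ER, fell by 0.51 (adjusted p = 3.25e-05). Of 45 nucleolar ribosome biogenesis genes 19 rose (42.2%) and 6 fell (13.3%). Polr1D, a subunit of RNA polymerases I and III, had 5.73, 6.94 and 9.21 CPM at the warm point, against 3.75, 4.42 and 5.43 CPM (0.63, SE 0.0937, adjusted p = 4.52e-05), and it overlaps the more abundant brat (0.17, adjusted p = 0.215) and DCTN6-p27 (0.18, adjusted p = 0.0409) on the other strand. The translation factor gene kra fell by 0.37 (adjusted p = 4.13e-07).

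The count for the genes of the ribosome itself was not firm. Of 85 cytosolic ribosomal protein genes 0 rose and 3 fell (3.53%, against 16.8% of all genes), with a median of -0.10. Without replicate 1 of the warm point at 6 cycles, the library with the high ribosomal protein sum, 72 fell and 0 rose, and with any other library left out 0 to 2 fell. With 12 cycles alone 23 fell, and with 6 cycles alone 0 fell. The nuclear genes of oxidative phosphorylation showed 0 rises and 2 falls among 67 (2.99%). Falls numbered 17 without replicate 1 of the warm point at 6 cycles, 4 without replicate 1 of the cool point at 6 cycles, and 0 without replicate 3 of either point at 6 cycles. Proteasome subunits showed 1 rise (2.13%) and 3 falls (6.38%) among 47, with 9 falls without that warm library and 1 to 3 without any other.

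Of 22 circadian clock genes 6 were higher (27.3%) and 10 lower (45.5%) at the warm point, against 17.1% and 16.8% of all genes. With each library left out in turn, 6 to 7 were higher and 8 to 10 lower. Beside per, its partner tim had 169, 235 and 303 CPM at the warm point, against 393, 472 and 588 CPM at the cool point (log2 fold change -1.05, SE 0.0690, adjusted p = 5.18e-09). Cryptochrome (cry) had 195, 223 and 248 CPM, against 47.3, 61.3 and 72.7 CPM at the cool point (1.83, SE 0.0624, adjusted p = 1.72e-12). The repressor gene vri of the second loop had 68.0, 105 and 121 CPM, against 42.8, 55.8 and 70.3 CPM (0.78, SE 0.0796, adjusted p = 8.06e-07).

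Clk, the activator, rose by 0.55 (adjusted p = 0.000179) but shares its strand with the more abundant CG32371 (-0.04, adjusted p = 0.560), and cwo, a repressor of the loop, fell by 0.57 (adjusted p = 0.000126). Cyc, the partner of Clk, was at -0.15 (adjusted p = 0.0373), a call lost with 10 of the 16 libraries left out in turn, and Pdp1 did not pass (-0.11, adjusted p = 0.125). The clock output and time-of-day list was chosen in part from earlier results of these data. Of its 18 genes 4 rose (22.2%) and 11 fell (61.1%), against 17.1% and 16.8% of all genes. CG3739 had 15.9, 41.9 and 63.2 CPM at the warm point, against 53.0, 409 and 825 CPM at the cool point (-3.47, SE 0.411, adjusted p = 4.26e-06), where the lowest value was again that of replicate 5 at 12 cycles. The feeding-related gene to (takeout) fell by 1.15 (adjusted p = 3.56e-10), with 34.4, 42.0 and 46.9 CPM, against 78.3, 89.4 and 101 CPM at the cool point.

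Set beside constant males, the clock genes parted into those that followed the sampling point in either regime and those that did not. The gene tim differed by -1.03 between the points in constant males (SE 0.111, adjusted p = 5.86e-05), and the difference between regimes was 0.01 (SE 0.129, adjusted p = 0.960). The gene per differed by 0.08 in constant males (SE 0.162, adjusted p = 0.835), and the regimes differed by -2.58 (SE 0.136, adjusted p = 1.62e-13). For cry the constant difference was 1.46 (adjusted p = 1.90e-09), to which fluctuation added 0.39 (adjusted p = 0.00115). The regimes also differed for vri (0.58, adjusted p = 0.000474) and cwo (-0.78, adjusted p = 0.00206), while Clk rose by 0.34 in constant males (adjusted p = 0.0144), with a regime difference of 0.24 (adjusted p = 0.160).

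**Figure D3:**
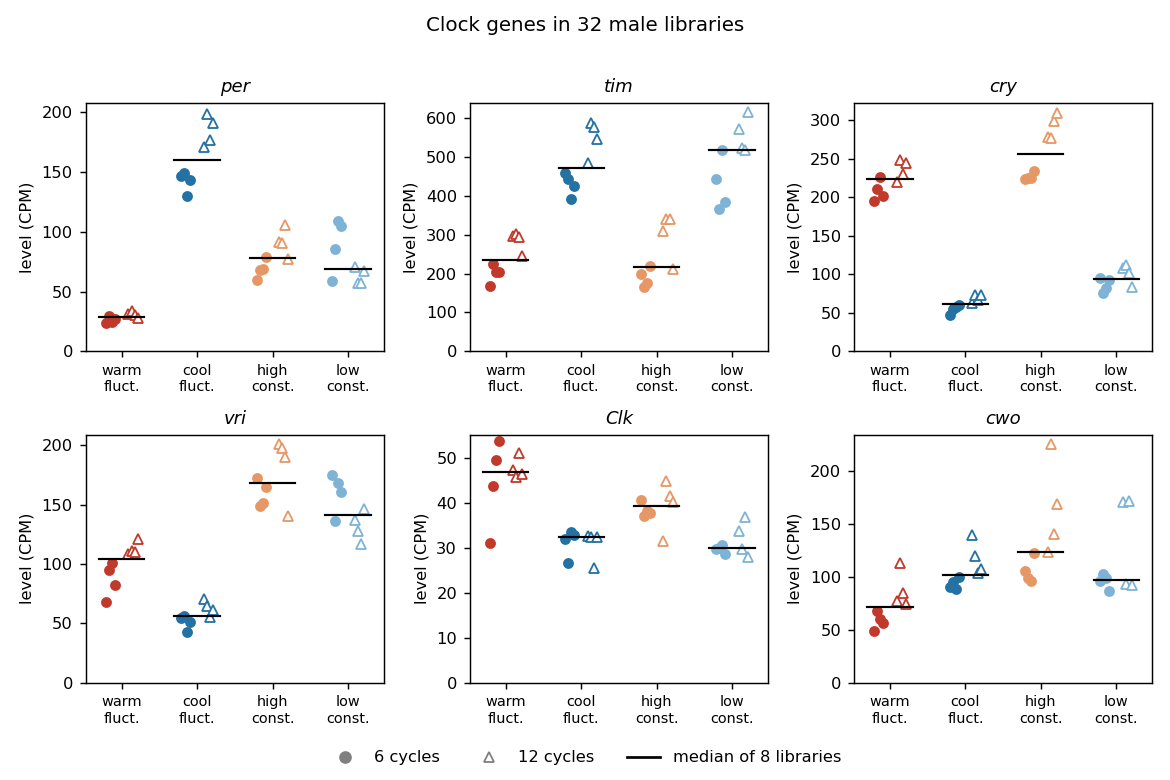
Level (CPM, y axis from 0) of 6 clock genes in the 32 male libraries, with fluctuating males at the warm and cool points left of constant males at the high and low points; circles are 6 cycles, triangles 12 cycles, black lines the median of 8 libraries. The per medians are 28.8 and 160 CPM under fluctuation and 78.2 and 69.0 CPM at constant temperature, whereas tim and cry differ between the points in both regimes.

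Of 17 glycolysis genes 6 rose (35.3%, against 17.1% of all genes) and 3 fell (17.6%, near the 16.8% of all genes). Of 15 trehalose, glycogen and gluconeogenesis genes 3 rose (20.0%) and 6 fell (40.0%), with 0 and 4 at 12 cycles alone and 6 and 5 at 6 cycles alone. Ldh, lactate dehydrogenase, had 44.2, 54.6 and 68.0 CPM at the warm point, against 93.3, 130 and 166 CPM at the cool point (log2 fold change -1.23, SE 0.0759, adjusted p = 2.38e-09), while the glycolytic isomerase gene Pgi rose by 0.39 (adjusted p = 1.35e-05). The glucosidase gene tobi, known as a target of insulin and glucagon-like signals, had 1830, 1960 and 2090 CPM, against 3120, 3870 and 5860 CPM at the cool point (-1.11, SE 0.0942, adjusted p = 1.05e-07). The trehalose transporter gene Tret1-1 fell by 0.66 (adjusted p = 5.50e-08).

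Of 24 genes of lipid storage, lipases and beta-oxidation 6 rose and 7 fell. Apolpp, which encodes the main lipid carrier of the hemolymph, had 2390, 4350 and 5360 CPM at the warm point, against 1400, 1590 and 2910 CPM at the cool point (1.21, SE 0.153, adjusted p = 8.67e-06). Whd, the carnitine palmitoyltransferase that admits fatty acids to mitochondria, had 205, 243 and 291 CPM, against 496, 569 and 782 CPM (-1.33, SE 0.0803, adjusted p = 1.89e-09). Mdy, which makes triglyceride from diglyceride, fell by 1.12 (adjusted p = 9.04e-06), and the lipase gene CG5966 rose by 1.26 (adjusted p = 8.14e-06).

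Of 21 genes of fatty acid synthesis and desaturation 6 rose (28.6%) and 9 fell (42.9%), against 17.1% and 16.8% of all genes. Without replicate 3 of the warm point at 6 cycles 5 fell. ATPCL, the source of cytosolic acetyl-CoA, rose by 0.75 (adjusted p = 1.21e-05) and the elongase gene Elovl7 by 0.60 (adjusted p = 6.77e-05). Desat1, the main fatty acid desaturase, had 2280, 2770 and 3960 CPM at the warm point, against 3160, 4250 and 5910 CPM at the cool point (-0.60, SE 0.0852, adjusted p = 2.68e-05). Men, the malic enzyme that supplies reducing power, fell by 1.01 (adjusted p = 1.93e-07), and its libraries did not overlap.

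Of 29 insulin and growth signalling genes 1 rose (3.45%) and 7 fell (24.1%), against 17.1% and 16.8% of all genes, and without replicate 1 of the warm point at 6 cycles 5 rose and 9 fell. AkhR, the receptor of the fat-mobilising hormone, had 29.0, 38.5 and 53.3 CPM at the warm point, against 58, 78.4 and 98.2 CPM at the cool point (-0.94, SE 0.0993, adjusted p = 1.14e-06). REPTOR, a transcription factor held back by TOR, fell by 0.85 (adjusted p = 3.87e-06). Of 6 cold-response genes 1 rose (16.7%, near the 17.1% of all genes) and 2 fell (33.3%). Frost (Fst), known for its rise after cold, had 14.9, 33.9 and 199 CPM at the warm point, against 41.7, 76.1 and 279 CPM at the cool point (-1.19, SE 0.293, adjusted p = 0.00409), and the points overlapped. The calcium-binding regucalcin rose by 0.32 (adjusted p = 0.0123). With 12 cycles alone neither passed (Fst -0.79, adjusted p = 0.297, and regucalcin 0.25, adjusted p = 0.271). The relative smp-30 did not pass (0.10, SE 0.129, adjusted p = 0.628).

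Of 55 digestive proteases, glycosidases and lysozymes 21 rose (38.2%) and 4 fell (7.27%), against 17.1% and 16.8% of all genes, with a median of 0.35. With 12 cycles alone 7 rose and 4 fell, and with 6 cycles alone 20 rose and 1 fell. The mannosidase gene LManIV had 3.14, 8.93 and 20.3 CPM at the warm point, against 1.05, 2.80 and 6.07 CPM at the cool point (1.87, SE 0.277, adjusted p = 4.59e-05), LManIII rose by 1.16 (adjusted p = 0.0107) and the maltase gene Mal-A2 fell by 0.70 (adjusted p = 2.99e-06). Many of these genes are close copies of each other, among which reads may be divided. The summed level of the list ran from 17800 to 34300 CPM at the warm point and from 13500 to 26100 CPM at the cool point, so the points overlapped.

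Of 35 glutathione transferase genes 9 rose (25.7%) and 4 fell (11.4%), against 17.1% and 16.8% of all genes. Of 76 cytochrome P450 genes 11 rose, a share below the 17.1% of all genes, and 23 fell (30.3%, against 16.8%). GstE1 had 60.0, 63.0 and 71.3 CPM at the warm point, against 29.5, 35.8 and 39.5 CPM at the cool point (0.88, SE 0.0555, adjusted p = 2.93e-09), GstD1 rose by 0.67 (adjusted p = 1.60e-05) and GstD8 fell by 0.98 (adjusted p = 0.000792). Cyp6a8 fell by 2.05 (SE 0.326, adjusted p = 9.27e-05), with 10.9, 16.8 and 57.4 CPM, against 38.3, 69.5 and 152 CPM at the cool point. Cyp4d21, first known as a gene of the male head, fell by 1.92 (adjusted p = 5.05e-09), and Cyp4s3, which overlaps the more abundant Rab3-GEF on the other strand (-0.09), rose by 1.09 (adjusted p = 1.09e-06).

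Of 28 redox defence genes 7 rose (25%, against 17.1% of all genes) and 5 fell (17.9%, near the 16.8% of all genes). There were 2 rises at 12 cycles alone and 4 rises without replicate 1 of the cool point at 6 cycles. The peroxiredoxin genes, whose products remove hydrogen peroxide, moved apart. Prx2 had 268, 286 and 347 CPM at the warm point, against 143, 168 and 186 CPM at the cool point (0.79, SE 0.0618, adjusted p = 4.15e-08). Prx6c had 31.9, 40.8 and 47.4 CPM, against 87.6, 108 and 145 CPM (-1.51, SE 0.109, adjusted p = 1.49e-08), and Prx6b fell by 1.40 (adjusted p = 4.74e-08). The metallothionein gene MtnD rose by 1.33 (adjusted p = 0.000176).

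Of 26 immune effectors of the Toll type 1 rose (3.85%) and 10 fell (38.5%), against 17.1% and 16.8% of all genes, and the other 15 did not pass. BomS2, a secreted Bomanin peptide, had 58.4, 113 and 179 CPM at the warm point, against 202, 304 and 488 CPM at the cool point (-1.47, SE 0.151, adjusted p = 8.65e-07). Of 23 genes of the Imd type 2 rose (8.7%) and 4 fell (17.4%, near the 16.8% of all genes). PGRP-SC2, an enzyme that degrades peptidoglycan and dampens the pathway, rose by 0.57 (adjusted p = 0.00177), and PGRP-LF, an inhibitory receptor, fell by 1.15 (adjusted p = 3.74e-06) but overlaps the much more abundant UGP on the other strand (0.17, adjusted p = 0.263). The peptide gene AttB fell by 1.69 (adjusted p = 0.0264), a call lost with 4 of the 16 libraries left out in turn. Of 7 Turandot stress genes tested 0 passed in either direction, against 33.9% of all genes.

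Of 22 genes of blood cells and phagocytosis 2 rose (9.09%) and 6 fell (27.3%), against 17.1% and 16.8% of all genes. Without replicate 1 of the warm point at 6 cycles 4 rose. Without replicate 4 of the cool point at 6 cycles 5 rose and 4 fell. The summed level of the list overlapped, at 1430 to 2120 CPM at the warm point and 1760 to 2220 CPM at the cool point. The engulfment receptor gene drpr had 77.2, 114 and 124 CPM at the warm point, against 184, 194 and 239 CPM at the cool point (-0.89, SE 0.0847, adjusted p = 3.62e-07). The GATA factor gene srp fell by 0.90 (adjusted p = 1.41e-06), as did an RNA that overlaps it on the same strand. Of 24 proton and sodium pump genes 1 rose (4.17%) and 4 fell (16.7%, near the 16.8% of all genes). These counts ranged from 1 to 5 and from 1 to 4 as single libraries were left out. In that list the phosphate transporter gene NaPi-T had 62.6, 82.9 and 106 CPM, against 135, 179 and 230 CPM at the cool point (-1.15, SE 0.0796, adjusted p = 9.88e-09).

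Many genes of the eye were lower at the warm point. Of 30 phototransduction and rhodopsin genes 2 rose and 15 fell, where 16.8% of all genes fell, and 4 rose without replicate 1 of the warm point at 6 cycles. The light-gated channel gene trpl had 91.5, 105 and 110 CPM at the warm point, against 140, 150 and 191 CPM at the cool point (-0.65, SE 0.0713, adjusted p = 1.87e-06), and chp, a membrane protein of photoreceptors, fell by 0.44 (adjusted p = 1.61e-05). Pdh, a dehydrogenase of the visual cycle, rose by 0.44 (adjusted p = 0.000951). The summed level of the list was 6710 to 8000 CPM at the warm point, against 7330 to 8550 CPM at the cool point, and the part that a smaller share of eye RNA has in these calls was not tested.

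Of 30 neuron and synapse genes 1 rose (3.33%) and 7 fell (23.3%), against 17.1% and 16.8% of all genes. With replicate 3 of the warm point or replicates 3 or 4 of the cool point at 6 cycles left out, 4, 3 and 3 fell, and without replicate 1 of the warm point 10 fell. The dopamine transporter gene DAT had 3.39, 5 and 5.45 CPM at the warm point, against 6.82, 9.41 and 10.2 CPM at the cool point (-0.97, SE 0.119, adjusted p = 6.14e-06). In muscle 3 of 31 sarcomere genes rose (9.68%) and 4 fell (12.9%), both below the shares of all genes. TpnC73F, a troponin C, had 37.5, 42.7 and 54.9 CPM at the warm point, against 16.4, 22 and 26.9 CPM at the cool point (0.99, SE 0.0544, adjusted p = 6.70e-10). With replicate 3 or 4 of the cool point at 6 cycles left out, 2 sarcomere genes fell.

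Of 28 odorant-binding protein genes 2 rose (7.14%) and 8 fell (28.6%), against 17.1% and 16.8% of all genes. Without replicate 8 of the warm point at 12 cycles or replicate 3 of either point at 6 cycles, 5 fell. The odorant-binding gene Obp83ef fell by 1.34 (adjusted p = 8.29e-06), and it overlaps a sister gene on the other strand.

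Splicing factors moved in both directions, with 7 of 26 higher (26.9%) and 8 lower (30.8%), against 17.1% and 16.8% of all genes. SC35, an SR protein of the spliceosome, had 35.1, 42.0 and 45.4 CPM at the warm point, against 59.9, 68.9 and 82.2 CPM at the cool point (-0.83, SE 0.0506, adjusted p = 1.96e-09), while the eRF3 gene on its other strand rose by 0.23. The sex-determination gene tra, which overlaps the more abundant l(3)73Ah (0.06), rose by 0.61 (adjusted p = 1.03e-07).

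Few genes of the male reproductive tract were called. Of 42 testis genes 0 rose and 1 fell (1 and 4 without replicate 1 of the warm point at 6 cycles), and of 53 accessory gland and ejaculatory bulb genes 4 rose and 4 fell, against 33.9% of all genes called. The accessory gland count was not firm: 9 rose without replicate 6 of the warm point at 12 cycles, and 7 fell without replicate 1 of the warm point at 6 cycles or replicate 5 of the cool point at 12 cycles, 2 fell with any of 11 single libraries left out, and 2 rose without replicate 8 of the warm point at 12 cycles. With 6 cycles alone 10 accessory gland and ejaculatory bulb genes rose and 1 fell, and with 12 cycles alone 1 rose and 2 fell. Acp36DE had 355, 658 and 906 CPM at the warm point, against 594, 1180 and 1390 CPM at the cool point (-0.73, SE 0.135, adjusted p = 0.000371), and the seminal fluid gene Sfp38D rose by 0.49 (adjusted p = 0.000205). Of 20 fat body genes 2 rose and 5 fell, with 8 falls without replicate 6 of the warm point at 12 cycles, 1 rise and 7 falls at 12 cycles alone, and 5 rises and 3 falls at 6 cycles alone. Their summed level went the other way, at 5160, 7670 and 8230 CPM at the warm point, against 3050, 4440 and 6320 CPM at the cool point. Of 25 yolk and eggshell genes 0 rose and 1 fell, with 4 rises and 0 falls at 6 cycles alone. With 12 cycles alone 0 rose and 6 fell, and those libraries include replicate 5 of the cool point, the highest for these genes.

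**Figure D4:**
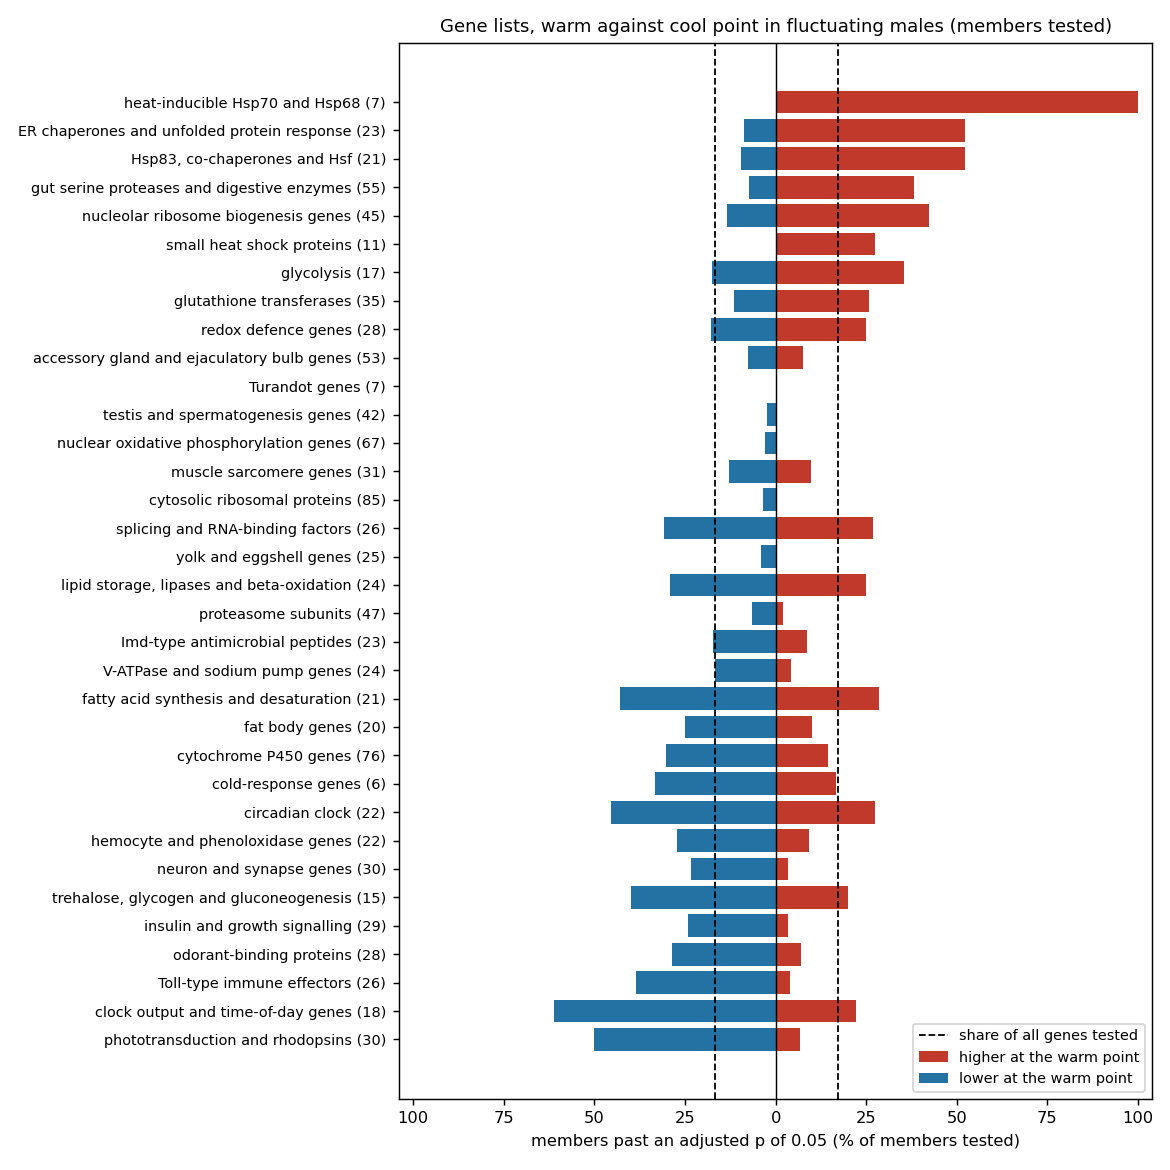
Share of the tested members of 34 gene lists (rows, with the number of members tested) past an adjusted p of 0.05 in fluctuating males, higher at the warm point to the right and lower to the left; dashed lines mark the shares of all genes, 17.1% higher and 16.8% lower. The Hsp70 list lies wholly on the higher side, while eye, time-of-day and Toll-type genes extend furthest to the lower side relative to the higher. The time-of-day list was chosen in part from earlier results of these data, so its share is no test. The other lists were chosen with such results known.

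In constant males the same sampling points gave 424 calls among 15513 genes (2.73%), 183 higher (1.18%) and 241 lower (1.55%) at the high point, and 644 without the library rich in yolk genes. That count was 816 with DESeq2, 114 with 6 cycles alone and 1381 with 12 cycles alone. The difference between the regimes, tested in 1 fit of the 32 male libraries, passed for 3647 of 15847 genes (23.0%). Of these, 2212 were more positive and 1435 more negative under fluctuation. The split was less uneven without the library rich in yolk genes (3752 genes, 2031 and 1721) and with the size factors of DESeq2 (2007 and 1614). Of 304 genes called in both regimes, 273 had the same direction. They were 72.4% of the genes called in constant males and 5.77% of those called in fluctuating males, among the genes tested in both, and the log2 fold changes across genes had a Pearson correlation of 0.15, which describes genes and not independent samples. Without the library rich in yolk genes 437 were called in both regimes, 383 in the same direction, which was 68.8% of the constant and 8.29% of the fluctuating calls, and the correlation was 0.18.

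Several of the steep changes were present at constant temperature. CG3739 differed by -3.08 in constant males (adjusted p = 5.64e-08), Cyp4d21 by -1.70 (adjusted p = 5.64e-08) and CG17560 by 1.70 (adjusted p = 9.12e-07), and for none of them did the regimes differ past the threshold (-0.37, SE 0.444; -0.19, SE 0.156; 0.28, SE 0.180). Acsx3 differed by -1.51 in constant males, and fluctuation added -0.99 (adjusted p = 8.61e-06). Other genes showed little at constant temperature. CG15155 differed there by 0.03 (adjusted p = 0.963) and Ldh by 0.03 (adjusted p = 0.844), with regime differences of 2.16 (adjusted p = 1.36e-06) and -1.23 (adjusted p = 6.80e-10). Without the library rich in yolk genes, the regime differences given for these genes and for the clock genes stayed on the same side of the threshold.

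By list, the regimes differed for 6 of 7 Hsp70 and Hsp68 genes (all more positive under fluctuation), 10 more positive and 2 more negative of the Hsp83 list, 14 and 1 of the ER list, 22 and 1 of the ribosome biogenesis list, and 0 and 11 of the Toll list, against 14.0% and 9.06% of all genes. The lists of the eye (0 and 3 of 30), of digestive enzymes (5 and 1 of 56) and of neurons (0 and 2 of 30) held few genes for which the regimes differed. At the high point of constant males the lowest library held 2460 CPM of eye genes (median 6760 CPM). The lowest for neuron genes held 1480 CPM (median 2640 CPM). The part of this spread in the eye and neuron counts was not tested. Without the constant library rich in yolk genes the Hsp83 list had 10 and 3 and the ribosome biogenesis list 21 and 2, while the eye list had 0 and 2 and the digestive list 3 and 1. The ribosome biogenesis list had a median of 0.08 in fluctuating and -0.35 in constant males, with the library rich in yolk genes kept. At the high point of constant males 0 of its genes were called higher and 0 lower, and 0 and 10 without that library. Against constant males of the same point, 7 of its genes were higher and 4 lower at the warm point. At the cool point 0 were higher and 34 lower (1 and 26 without that library). For smp-30 the regimes also differed (-0.63, adjusted p = 0.00369): it was higher at the high point in constant males (0.76, adjusted p = 0.000994), with no such call in fluctuating males. Against constant males of the same point, Stip1 differed by 0.98 at the warm point and by -0.77 at the cool point (-0.55 without that library), and apolpp by 1.14 at the warm point and by -0.28 (adjusted p = 0.119) at the cool point. CG15155 differed by -1.61 at the cool point (adjusted p = 8.99e-07) and by 0.55 at the warm point.

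**Figure D5:**
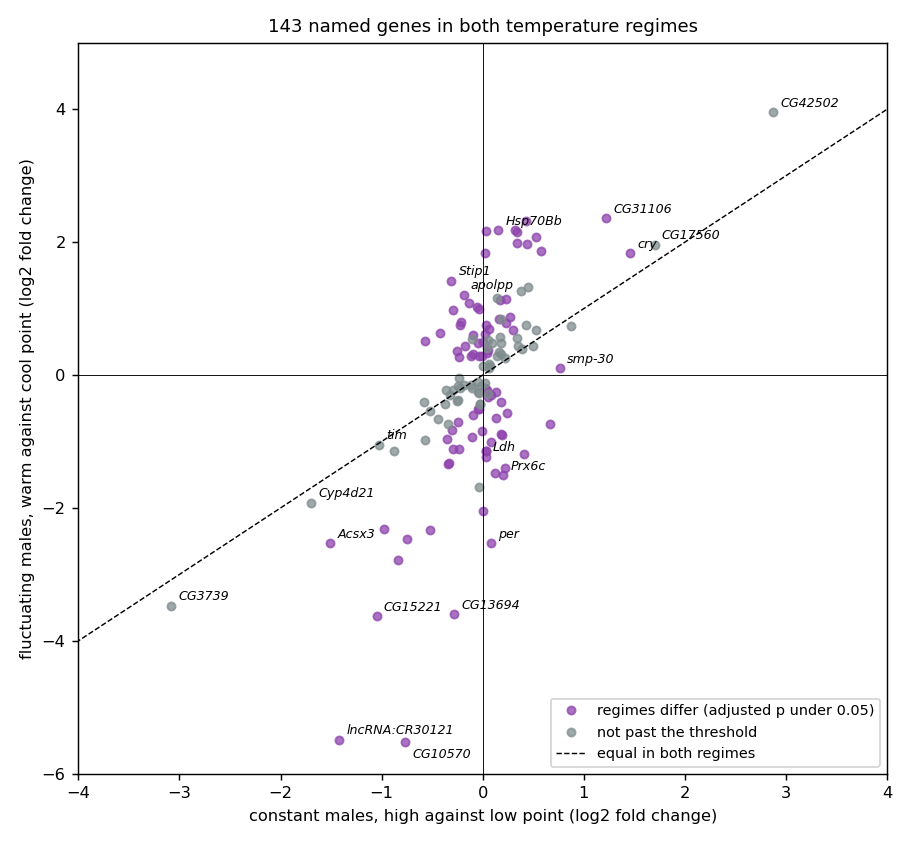
Log2 fold changes of the 143 genes named by rule or in the text, fluctuating males (warm against cool, y axis) against constant males (high against low point, x axis); purple points are genes for which the regimes differ at an adjusted p of 0.05. The genes tim, Cyp4d21, CG17560 and CG3739 lie near the dashed line of equal change, whereas per and CG13694 lie far from it, near 0 on the x axis.

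Fitted apart at 12 and at 6 cycles, 2216 genes were called at both cycle numbers, 2211 of them in the same direction, which is 55.8% of the calls at 12 cycles and 69.3% of those at 6, with a Pearson correlation of 0.66 across genes. The warm-cool difference itself differed between 12 and 6 cycles for 34 of 15599 genes (0.218%), 6 more positive (0.0385%) and 28 more negative (0.179%) at 12 cycles. That count ran from 13 to 60 with each library left out in turn, was 171 with DESeq2 and was 1 with replicate number as a block. Of the 34 genes, Sodh1 is named from the fat body list, and UGP, AGBE, Taldo and ImpL2 were chosen after their values were seen. Sodh1, a sorbitol dehydrogenase, averaged 855 CPM warm and 725 CPM cool at 12 cycles, and 579 and 243 CPM at 6 (difference of the effects -1.05, SE 0.184, adjusted p = 0.0285). UGP, which makes the UDP-glucose for glycogen, averaged 727 and 821 CPM at 12 cycles, and 736 and 505 CPM at 6 (-0.75, adjusted p = 0.0129).

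AGBE, the glycogen branching enzyme, averaged 136 CPM warm and 238 CPM cool at 12 cycles, and 193 and 188 CPM at 6 (-0.88, adjusted p = 0.0147). Taldo, a transaldolase of the pentose phosphate pathway, was higher at the warm point at both cycle numbers, by 0.37 at 12 and by 1.04 at 6 (-0.70, adjusted p = 0.0498). ImpL2, a secreted antagonist of insulin, moved the other way, with means of 139 and 116 CPM at 12 cycles and 45.4 and 96.1 CPM at 6 (1.31, SE 0.187, adjusted p = 0.0129). Cycle number is also age and date of sampling, which cannot be told apart.

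In fluctuating females 3466 of 13033 genes differed between the points (26.6%). Of 2317 genes called in both sexes, 2256 had the same direction. They were 45.5% of the genes called in males and 67.2% of those called in females, with a Pearson correlation of 0.52 across genes. The sexes differed in the effect for 2971 of 15882 genes (18.7%), more positive in males for 2204 (13.9%) and more negative for 767 (4.83%). With the size factors of DESeq2 the split was 1834 and 837, and the median difference over all genes was 0.06 in the main fit. That fit tested more genes than the 13033 that passed the filter in females alone, so some entered through the males. The clock gene per was nearly equal, at -2.53 in males and -2.51 in females (difference 0.04, SE 0.0809, adjusted p = 0.833).

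Several chaperones responded more in males. Stip1 rose by 1.42 in males and by 0.20 in females (difference 1.28, SE 0.0616, adjusted p = 1.92e-14), Hsp83 by 0.98 and 0.22 (0.82, SE 0.0822, adjusted p = 3.49e-08) and Hsc70-4 by 1.02 and 0.29 (0.79, SE 0.0497, adjusted p = 6.19e-12). Hsp68 went the other way, at 0.26 in males and 0.79 in females (-0.46, adjusted p = 0.0123). The falls of rost (-2.32 in males and -0.45 in females) and stl (-2.47 and -0.68) were also deeper in males (differences -1.81, adjusted p = 2.02e-15, and -1.73, adjusted p = 2.12e-08). Whole females hold ovaries, and the part of tissue make-up in these differences was not tested.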

How the data were processed

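The deposited table holds 1 estimated count per gene and library, whole numbers not scaled to library size. Per the submitters' processing notes the tools were FastQC, Trimmomatic, HISAT2 and StringTie with the BDGP6 genome; their versions and settings are not given in any source used here. Per the labels' protocols, messenger RNA was enriched with oligo(dT) beads. In the 16 libraries, 30.9% of values from 1 to 24 were multiples of 4, where evenly spread values would give 1 in 4. The value 4 itself occurred 3040 times, against 1712 times for 3 and 1704 times for 5. A fragment may thus add about 4 counts, in which case the counts overstate the depth. The totals put that depth at 87.1 to 122.6 per library in units of 1000000. No pair of replicates was identical among 24 compared.

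From these counts, edgeR 4.0.16 (R 4.3.3) fitted quasi-likelihood models with TMM factors and filterByExpr (minimum count 10), with cycle number as covariate. Adjusted p is Benjamini-Hochberg over all genes tested, with a threshold of 0.05. Fold changes are warm minus cool or high minus low on the log2 scale, SE is the fold change divided by the root of F, and levels are CPM. The regime, cycle and sex differences are contrasts of group means. P-values measure the spread between these libraries. Gene positions come from annotation BDGP6.54 release 115, matched by gene ID (138 of 17697 IDs had no match).

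Named genes were the 10 steepest rises and 10 steepest falls with a mean of at least 5 CPM and no overlap within cycle number, a set of chaperone, clock and cold genes, and up to 2 genes per direction from each of 34 lists. The members and lists were chosen with earlier results of these data known. The scripts were tested on simulated data. Alternatives were DESeq2 1.42.0, its size factors, no filter, values divided by 4, a robust fit, a replicate block, each cycle number alone, a fit of 32 male libraries and each library left out. A further one, without replicate 1 of the warm point at 6 cycles and replicate 5 of the cool point at 12 cycles, was chosen after seeing the data. Larvae and constant females were not used here.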

Additional observations from a re-analysis of the deposited data

Results flagged for a closer look

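The level of each gene described and the sum of each marker list was examined within the 4 groups of 4 fluctuating male libraries for 1 library far from the other 3. Of 416 such values 33 stood apart (7.93%), where chance gives about 1 in 20. The range of the other 3 libraries follows each value in parentheses.

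Replicate 6 of the warm point at 12 cycles stood apart for 6 genes. It had 684 CPM of CG42502 (others 539 to 554 CPM), 218 CPM of Grp170 (286 to 299 CPM), 766 CPM of Men (641 to 659 CPM), 37.6 CPM of MtnD (16.8 to 19.7 CPM), 33.3 CPM of Prx6b (22.4 to 23.7 CPM) and 355 CPM of Acp36DE (575 to 589 CPM). Replicate 8 of the same group had 0.41 CPM of lncRNA:CR30121 (0.513 to 0.531 CPM), 2.41 CPM of Hsp70Ba (4.14 to 4.32 CPM) and 245 CPM of tim (294 to 303 CPM), and replicate 5 had 874 CPM of Taldo (761 to 776 CPM).

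At the warm point after 6 cycles, replicate 1 had 16.2 CPM of rost (13.6 to 13.9 CPM), 54.1 CPM of Ire1 (77.6 to 81.8 CPM), 57.5 CPM of Ldh (44.2 to 45.5 CPM), 70.5 CPM of GstE1 (62.3 to 63.1 CPM), 3.39 CPM of DAT (5.34 to 5.45 CPM) and 70900 CPM of cytosolic ribosomal proteins in sum (53200 to 55000 CPM). Replicate 2 had 58.8 CPM of Acsx3 (64.7 to 65.3 CPM), and replicate 4 had 483 CPM of kra (445 to 451 CPM).

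At the cool point after 12 cycles, replicate 5 had 505 CPM of CG42502 (10.6 to 10.8 CPM), 14.6 CPM of CG10570 (524 to 585 CPM), 22.8 CPM of Hsp70Aa (12.8 to 13.7 CPM), 24.3 CPM of Hsp70Ab (13.9 to 15.5 CPM), 806 CPM of Hsp83 (619 to 622 CPM), 213 CPM of regucalcin (314 to 332 CPM) and 264 CPM of yolk and eggshell genes in sum (58.5 to 90.3 CPM). Replicate 7 had 25.5 CPM of Clk (32.3 to 32.7 CPM) and 191 CPM of NaPi-T (224 to 230 CPM), and replicate 8 had 43.6 CPM of Stip1 (50.5 to 51.8 CPM).

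At the cool point after 6 cycles, replicate 4 had 17 CPM of Hsp70Aa (14.8 to 15 CPM), replicate 1 had 34.9 CPM of CG5966 (28.6 to 28.9 CPM), replicate 3 had 14.8 CPM of Cyp4s3 (10.9 to 11.2 CPM), and replicate 2 had 7.90 CPM of DAT (9.29 to 9.56 CPM) and 59.9 CPM of SC35 (66.5 to 67.8 CPM).

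The effect of the warm against the cool point differed between 12 and 6 cycles for Sodh1 (-1.05), UGP (-0.75), AGBE (-0.88), Taldo (-0.70) and ImpL2 (1.31). It differed between males and females, as males minus females, for Takl2 (1.01), CG15221 (-2.01), stl (-1.73), rost (-1.81), Hsp70Aa and Hsp70Ab (1.04 each), Hsp68 (-0.46), Hsp83 (0.82), DnaJ-1 (0.33), Hsp26 (0.36), Stip1 (1.28) and Hsc70-4 (0.79), each past the threshold of edgeR's quasi-likelihood test.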

How the results depend on the processing

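The count of 5291 genes for the warm against the cool point was 4983 to 5865 with each library left out, 5591 with DESeq2, 3980 with 12 cycles alone and 3199 with 6 cycles alone. With 6 cycles alone the regime difference fell to 1221 genes, the fluctuating against constant difference at the warm point to 2025 and the sex difference to 1255. With 12 cycles alone the cool-point difference was 2026, the female count 1174 and the sex difference 1351. These fits hold fewer libraries. The constant male count of 424 was 816 with DESeq2, 114 with 6 cycles alone, 1381 with 12 cycles alone, and 322 to 644 with each library left out. The cycle difference of 34 genes was 171 with DESeq2 and 13 to 60 with each library left out, and the cause was not tested.

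Same-numbered warm and cool libraries showed little shared deviation (correlations -0.11 to 0.16). That cannot show whether the numbers pair them, and the design text does not say. With the replicate block the main count was 5026, the constant male count 274 and the cycle difference 1. Of 143 named genes, 136 were called, and 48 of these lost the call under at least 1 alternative. With 6 cycles alone Hsf did not pass (-0.23), nor did LManIII (0.64), PGRP-SC2 (0.39) and Pdh (0.43) with 12 cycles alone. Values turned in sign for Hsp27 (0.04) and AGBE (0.04) at 6 cycles alone, and for smp-30 (-0.24), UGP (-0.18) and ImpL2 (0.26) at 12 cycles alone. Without replicate 1 of the warm point at 6 cycles and replicate 5 of the cool point at 12 cycles, 71 of 85 ribosomal protein genes and 38 of 67 oxidative phosphorylation genes fell, and 2 accessory gland genes rose and 12 fell. Genes under 1 CPM were called in 13.1% of cases, against 36.0% to 40.6% above 10 CPM.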

Other observations

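Chromosome 4, the small dot chromosome, stood out by counts: of its 107 genes tested in fluctuating males 12 were higher at the warm point (11.2%) and 43 lower (40.2%), against 17.1% and 16.8% of all genes. On the X chromosome 14.0% were higher and 18.6% lower. Genes are not independent replicates, so these shares are given as a description with no test.

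Protein-coding genes were called in 37.0% of 13175 cases and non-coding RNA genes in 16.3% of 2041. Opposite calls for both genes annotated on 1 interval, as for CG42502 and CG10570, were also seen for Pepck1 and CG45087, sea and fabp, and CG11889 and CG11891. Whether these 4 pairs among 129 are more than unrelated genes would give was not tested.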
